A study of Mus musculus with 12 samples.

Results

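The 10 TNF and NF-kB response genes described here were matched by symbol in the gene table of each tissue, and all 10 of them were found among the 53801 genes counted. They are the ligand genes Tnf and Ltb, the receptor genes Tnfrsf1a and Tnfrsf1b, the receptor-proximal ligase Birc3, the NF-kB subunit Relb, the feedback regulators Nfkbia, Tnfaip3 and Nfkbiz, and the TNF-induced gene Tnfaip2. Total RNA was sequenced from colon and whole blood of the same 6 male wild-type C57BL/6 mice, which were 8 weeks old on arrival. Mice 1, 2 and 4 are labelled ulcerative colitis (UC). The UC group drank 1.5% dextran sulfate sodium (DSS), a sulfated sugar polymer that injures the gut lining, for 7 days before a switch to plain water. Mice 7, 8 and 9 are labelled control, a group described as time-matched on water without DSS. Every mouse was killed on day 8, so each tissue holds 3 libraries of each label. The mice had been picked from larger groups by their disease score, and the labels name no allele or transgene.

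TNF is a cytokine made mainly by activated macrophages and lymphocytes. It binds 2 receptors: TNFR1, encoded by Tnfrsf1a, is found on most cells, and TNFR2, encoded by Tnfrsf1b, is found chiefly on immune and endothelial cells. Receptor binding activates the IKK kinases, which mark the inhibitor IkB-alpha for degradation and release NF-kB into the nucleus. NF-kB then switches on inflammatory genes and also the genes of its own inhibitors, among them Nfkbia and Tnfaip3, so that the signal shuts itself off. Antibodies against TNF are an established treatment of human UC.

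The upstream bases of 2 members are shown because Nfkbia is a textbook case of an inhibitor driven by the factor it inhibits, and Tnf encodes the ligand at the top of the pathway. Each is the 250 bases before the RefSeq gene start in GRCm38.p6, read 5′ to 3′ on the strand of the gene. Capitals mark matches to 2 kB-like patterns, GGGNNNTTC and GGGNNNTCC, searched on both strands.
Nfkbia, chr12:55492648-55492897, minus strand: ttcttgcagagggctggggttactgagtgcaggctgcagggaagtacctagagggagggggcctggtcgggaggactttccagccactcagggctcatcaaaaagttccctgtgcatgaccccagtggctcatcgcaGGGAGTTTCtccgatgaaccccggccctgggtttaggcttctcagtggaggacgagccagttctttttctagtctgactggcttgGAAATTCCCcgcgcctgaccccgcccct
Tnf, chr17:35202008-35202257, minus strand: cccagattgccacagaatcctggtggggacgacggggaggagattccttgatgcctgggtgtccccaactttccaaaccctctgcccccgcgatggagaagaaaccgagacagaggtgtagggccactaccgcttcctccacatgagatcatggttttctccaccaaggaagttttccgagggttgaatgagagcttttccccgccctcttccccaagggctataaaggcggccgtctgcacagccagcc
The Nfkbia window held 2 matches to GGGNNNTTC, one on each strand, at 113 and 28 bases upstream of the start. The Tnf window held 0 matches, which says only that these letters are not in those 250 bases. An upstream window was matched for 8 of the 10 genes, and Nfkbiz and Relb had no entry. Ltb (chr17:35194257-35194506) held 2 matches, Tnfaip2 (chr12:111442411-111442660) 1, and the start of Tnfaip3 with its window at chr10:19015411-19015660 held 4, of which GGAAATCCC and GAAATCCCC overlap each other. The window of another Tnfaip3 start, at chr10:19011964-19012213, held 1. Tnfrsf1a, Tnfrsf1b and Birc3 held 0. Of 32851 such windows across the genome, 24.2% held either pattern, 11.8% the first and 15.2% the second.

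The total count per library ran from 69181049 to 103662306 in colon and from 80867247 to 142536804 in blood. The labels give each sample's tissue in a pair of fields that oppose each other, and the field used here was the one that red cell and gut genes follow. S100a8, which encodes a neutrophil protein used as an inflammation marker, went against the disease labels. Its colon normalized count, the authors' count divided by a scaling factor per library, was 5370, 33.1 and 22.3 in UC-labelled mice 1, 2 and 4 and 1888, 75.6 and 13340 in control-labelled mice 7, 8 and 9. Its blood normalized count was highest in the same mice, at 88580, 37180 and 101900 in mice 1, 7 and 9 against 14300, 11470 and 8642 in mice 2, 4 and 8. The groups below are therefore given as the libraries labelled UC and labelled control, and no mouse was moved to another group. The authors' normalized tables list the mice in the order 1, 7, 9, 2, 4 and 8. Whether the labels name the treatment each mouse received was not tested, and every sign of a UC-over-control value rests on them. The summed normalized count of 8 neutrophil markers ran from 7531 to 66970 in colon and from 40630 to 482700 in blood, with mice 1, 7 and 9 the highest in both tissues. Of these 8, Ly6g alone had 109592 counts over the colon libraries, so the colon sum rests largely on that 1 gene.

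The first question was whether these genes differed between DSS-treated and untreated colon. No difference between the labelled groups passed the test for any of the 10. The study reported widespread differences between UC and control mice in colon and blood, and a clear separation of the groups. The label fits below did not recover this, since hardly any gene passed in either tissue. The reason was not tested. The result for the 10 genes is therefore one about the labels, and does not show that DSS left them unchanged. The colon of mice 1, 7 and 9, which carry both labels, held the 3 highest values of 6 genes: Tnf, both receptors, Tnfaip2, Nfkbia and Nfkbiz. Over all genes with a mean of at least 10 normalized counts, 18.3% had their 3 highest colon values in these 3 mice and 14.7% in mice 2, 4 and 8, where no member did. The choice of mice 1, 7 and 9 rests on S100a8 after its values were seen, so these counts are a description with no test.

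Tnf, the ligand, had colon normalized counts of 739.7, 128.0 and 171.6 in the UC-labelled mice 1, 2 and 4 and of 708.2, 80.7 and 1581 in the control-labelled mice 7, 8 and 9. The highest and the lowest value both carried the control label and differed 19.6-fold. Ltb encodes lymphotoxin beta, a membrane ligand of lymphocytes that signals through the lymphotoxin beta receptor. Its normalized colon counts were 100.4, 115.0 and 183.1 in mice 1, 2 and 4 and 438.8, 61.8 and 305.9 in mice 7, 8 and 9. Mice 7 and 9 were the highest, and mouse 1 was the second lowest, whereas for Tnf mice 9 and 1 were the highest. The summed B cell markers of the colon were also lowest in mouse 1, at 247.2, and highest in mice 9 and 7, at 3669 and 3280. The summed T cell markers were 1663, 1628 and 1048 in mice 9, 7 and 1, and at most 473.5 in mice 2, 4 and 8, so mouse 1 stood above mice 2, 4 and 8 by T cell markers and below every mouse by B cell markers. Ltb itself was lowest in mouse 8. The part of B and T cells in the Ltb values was not tested, and in bulk tissue fewer cells of a type and less RNA per cell cannot be told apart.

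Tnfrsf1a had a colon normalized count of 5503, 3379 and 2234 in mice 1, 2 and 4 and 7245, 2662 and 8052 in mice 7, 8 and 9. Tnfrsf1b had 7393, 1940 and 1638 in mice 1, 2 and 4 and 10810, 1540 and 16380 in mice 7, 8 and 9. Both receptors were high in mice 1, 7 and 9, and the highest value was 3.60 times the lowest for Tnfrsf1a and 10.6 times for Tnfrsf1b. The summed count of 9 monocyte and macrophage markers was also highest in mice 9, 7 and 1, at 37990, 26780 and 19470, and at most 10840 in the other 3 mice. The stromal and endothelial marker sum was highest in mice 9, 7 and 1 as well, at 199400, 156900 and 114400. The T cell and neutrophil sums were highest in these mice too, whereas the B cell, gut epithelium and red cell sums were not. The part of any of these cells in the receptor values was not tested.

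Tnfaip2, induced by TNF in endothelial and myeloid cells, was the most variable member. Its colon normalized counts were 1826, 505.1 and 377.8 in mice 1, 2 and 4 and 2456, 172.7 and 6081 in mice 7, 8 and 9, a range of 35.2-fold with full overlap of the labels. Tnfaip2 shares 314 exon bases, 6.3% of its exon length, with Gm40578 on the opposite strand. The authors' counting set no strand, so reads of that stretch cannot be assigned.

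The feedback regulators varied less and did not share one order of mice. Nfkbia encodes IkB-alpha, which holds NF-kB in the cytoplasm. Its normalized colon counts were 6750, 4364 and 6289 in mice 1, 2 and 4 and 7529, 6146 and 10110 in mice 7, 8 and 9. Nfkbiz encodes IkB-zeta, a nuclear regulator that helps NF-kB switch on a second wave of genes. It had 8369, 5634 and 3584 in mice 1, 2 and 4 and 8705, 4408 and 12620 in mice 7, 8 and 9. Tnfaip3 encodes A20, a ubiquitin-editing enzyme that ends TNF receptor signalling. It had 4068, 4103 and 5079 in mice 1, 2 and 4 and 3316, 8204 and 7031 in mice 7, 8 and 9. Nfkbia and Nfkbiz were highest in mice 9, 7 and 1, whereas Tnfaip3 was highest in mouse 8, where Tnf was lowest, and lowest in mouse 7.

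Birc3 and Relb had the smallest ratios of highest to lowest value in colon, while by the SD of log2 values Nfkbia, at 0.397, varied slightly less than Relb, at 0.404. Birc3 encodes cIAP2, a ubiquitin ligase at the TNF receptor that keeps cells alive. Its normalized counts were 4861, 4669 and 5890 in mice 1, 2 and 4 and 4429, 5589 and 6177 in mice 7, 8 and 9, a range of 1.40-fold. Relb encodes a subunit of the non-canonical NF-kB dimer. It had 3003, 2882 and 4765 in mice 1, 2 and 4 and 2424, 4351 and 2573 in mice 7, 8 and 9, so that mice 7 and 9 had its lowest values. The median ratio of highest to lowest value was 3.56 for the 10 genes, against 2.14 for all genes in colon.

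**Figure D1:**
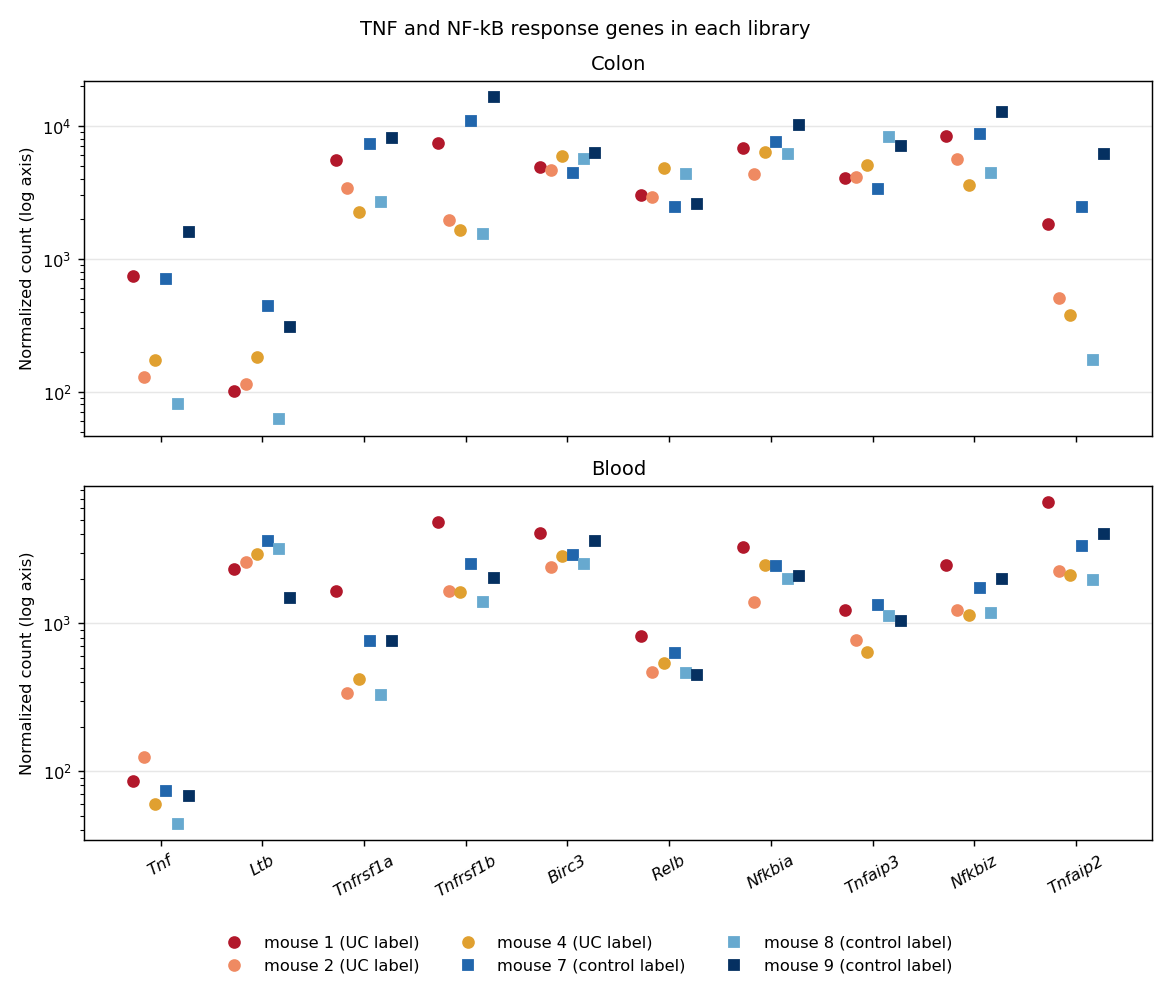
Normalized counts of the 10 genes in each library, on a log axis, for colon (top) and blood (bottom). Circles carry the UC label and squares the control label. In colon, mice 1, 7 and 9 lie above mice 2, 4 and 8 for Tnf, Tnfrsf1a, Tnfrsf1b, Tnfaip2, Nfkbia and Nfkbiz, while Birc3 spans 1.40-fold.

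In edgeR's quasi-likelihood fit of the colon counts, 0 of the 10 genes were SDE between labels, where SDE (significantly differentially expressed) means an absolute log2FC (log2 fold change) over 1 with a Benjamini-Hochberg adjusted p no higher than 0.05. The count was also 0 at an unadjusted p under 0.05, where 313 of all genes stood, and in DESeq2, where 6 of all genes were SDE. The share of SDE genes among all 22238 tested was 0.0045%, which is 1 gene. The log2FC of UC-labelled over control-labelled colon was -1.19 with an SE of 1.08 for Tnf, -1.68 with an SE of 1.16 for Tnfaip2, and -1.39 with an SE of 0.92 for Tnfrsf1b. These sizes rested on single mice: without mouse 9 they were -0.22, -0.58 and -0.79, and without mouse 1 -2.40, -2.71 and -2.42. The value nearest to 0 was -0.08 for Birc3, with an SE of 0.18, and Relb at 0.17 was the one positive value. The 95% confidence interval for Tnf ran from -3.79 to 1.41 and so left room for a large change either way, while that for Birc3 ran from -0.53 to 0.36. The median of the 10 was -0.63, against -0.01 over all genes. The labelled groups overlapped for every member, and 5.66% of all colon genes had groups that did not.

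In blood, the members were again not SDE between labels, at 0 of 10, with 0 at an unadjusted p under 0.05 and 0 in DESeq2. Over all 16759 genes tested the share was 0.0%, with 241 genes at an unadjusted p under 0.05 and 6 SDE in DESeq2. Groups overlapped for all 10 genes, while 6.5% of all blood genes had groups that did not. Tnf, low in blood, had normalized counts of 85.3, 124.9 and 59.7 in UC-labelled mice 1, 2 and 4 and 73.5, 43.7 and 67.8 in control-labelled mice 7, 8 and 9. Its log2FC of 0.53 had an SE of 0.40. The highest Tnf count of the blood was in mouse 2, whose colon had the second lowest. The 10 log2FC values ran from -0.41 for Tnfaip3 to 0.53 for Tnf, 7 of them positive, with a median of 0.18 against 0.04 over all genes. These signs were not stable: scaled by library size alone Tnf, at 0.15, was the one positive value, without mouse 1 the positive values were Tnf at 0.57 and Ltb at 0.01, and 8 of the 10 genes changed sign in some alternative.

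Mouse 1 had the highest blood value of 7 genes, led by both receptors. Tnfrsf1a had a blood normalized count of 1663, 338.7 and 418.9 in mice 1, 2 and 4 and 755.0, 325.2 and 756.2 in mice 7, 8 and 9. Tnfrsf1b had 4835, 1666 and 1635 in mice 1, 2 and 4 and 2512, 1401 and 2033 in mice 7, 8 and 9. Tnfaip2 had 6636, 2250 and 2124 in mice 1, 2 and 4 and 3316, 1979 and 4054 in mice 7, 8 and 9. All 3 genes, and with them Nfkbiz and Birc3, had their 3 highest blood values in mice 1, 7 and 9, as had 11.8% of all blood genes. Of these 5, 4 had the same 3 highest mice in colon, and Birc3 did not. The neutrophil marker sum in blood followed the same mice, at 482700 in mouse 1, 359400 in mouse 9 and 156500 in mouse 7 against 40630 to 55680 in the other 3. Its part in these values was not tested.

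Nfkbiz had a blood normalized count of 2501, 1230 and 1134 in mice 1, 2 and 4 and 1726, 1170 and 1988 in mice 7, 8 and 9. Birc3 had 4112, 2426 and 2878 in mice 1, 2 and 4 and 2910, 2514 and 3621 in mice 7, 8 and 9. Nfkbia had 3309, 1394 and 2483 in mice 1, 2 and 4 and 2448, 1999 and 2080 in mice 7, 8 and 9. In all 3 genes mouse 1 was highest and the labels overlapped. Relb ran from 449.3 in mouse 9 to 821.4 in mouse 1, with a median of 503.6, and Tnfaip3 from 635.7 in mouse 4 to 1331 in mouse 7, with a median of 1078. Ltb had another order, with its lowest value of 1488 in mouse 9, its second lowest of 2346 in mouse 1 and its highest of 3623 in mouse 7. The B cell marker sum of the blood was likewise lowest in mice 1 and 9, at 19430 and 20260, and so was the T cell sum, at 6161 and 7410. The part of these cells in the Ltb values was not tested. The members' median ratio of highest to lowest value in blood was 2.41, close to the 2.19 of all genes.

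The effect of the UC label was also compared between colon and blood in one fit of the 12 libraries. The difference of the log2FC values, colon minus blood, was below 0 for all 10 genes, from -1.93 for Tnfaip2 to -0.08 for Relb, with a median of -0.79 against -0.06 for all genes. Scaled by library size alone, Tnfaip3, Birc3 and Relb were above 0, at 0.29, 0.28 and 0.32, as they were without mouse 1, at 0.29, 0.14 and 0.31, or without mouse 8, at 0.22, 0.02 and 0.34. Tnfaip3 was also above 0 without mouse 9, at 0.08, and with the mouse as a replicate block, at 0.04. All 8 neutrophil, 9 monocyte and macrophage, 8 T cell and 6 B cell markers were below 0 in the same contrast, with list medians of -2.497, -1.47, -1.04 and -1.27. So were 6 of 7 stromal and endothelial and 4 of 5 red cell markers, with medians of -1.58 and -0.52. Of 7 gut epithelium markers 3 were below 0, with a median of 0.03. The part of any of these cells in the contrast was not tested. No member reached an adjusted p of 0.05 in this edgeR fit, where all 10 had an adjusted p of 1.0, and 0.0043% of all 23258 genes did. The smallest unadjusted p was 0.132, for Tnfrsf1b.

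**Figure D2:**
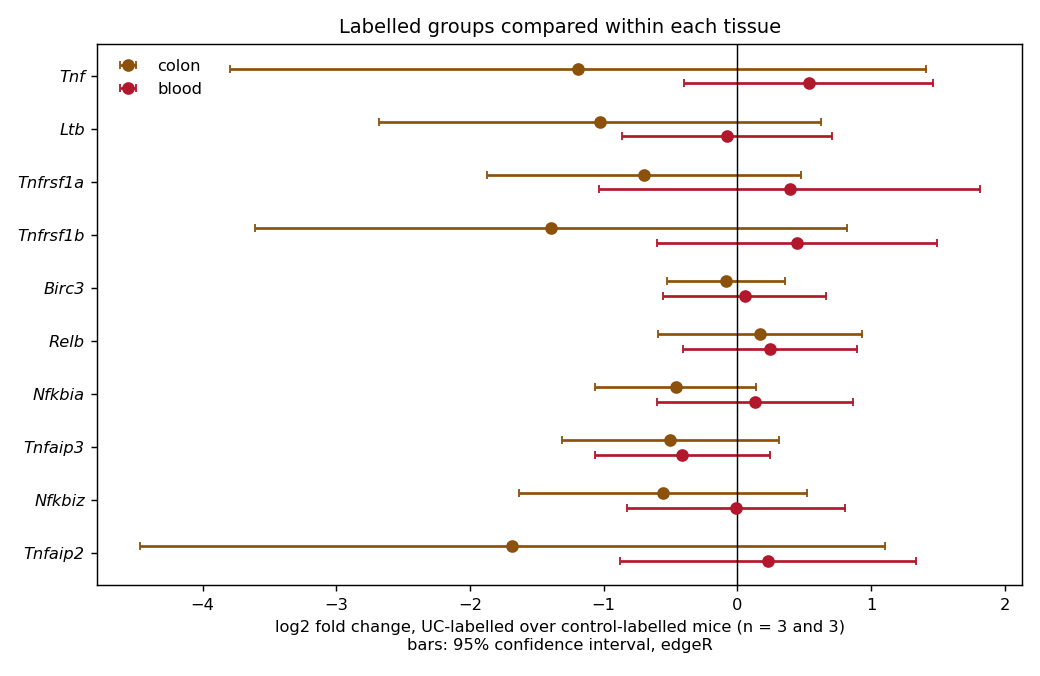
Log2 fold change of UC-labelled over control-labelled mice (horizontal axis) for each gene, in colon (brown) and blood (red). Points are edgeR estimates from 3 and 3 libraries and bars are 95% confidence intervals. The interval of every gene spans 0 in both tissues, and the widest belong to Tnfaip2, Tnf and Tnfrsf1b in colon.

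Other genes of the pathway were counted in the same way. None of the genes of 6 further lists was SDE between labels in either tissue. Of 22 other NF-kB target genes with a mean of at least 10 colon counts, 16 had their 3 highest colon values in mice 1, 7 and 9, among them Il1b, Cxcl2, Icam1 and Il6. Il1b, which encodes the cytokine interleukin-1 beta, had normalized colon counts of 4138, 124.5 and 20.6 in mice 1, 2 and 4 and 1361, 31.5 and 13430 in mice 7, 8 and 9. Klf6 went the other way, with its 3 highest colon values in mice 2, 4 and 8. Mice 1, 7 and 9 held the 3 highest colon values of 3 of the 4 other subunits, Rel, Nfkb1 and Nfkb2, and not of Rela. Mice 1, 7 and 9 also did so for 7 of 12 other inhibitors, 6 of 11 other ligands and 8 of 19 other receptors. The count was 8 of 24 for the receptor-proximal and IKK genes. In blood the share of the targets was 7 of 17, and no other list exceeded 2 genes. The median colon log2FC between labels was -1.17 for the targets and -0.03 for the receptor-proximal and IKK genes, against -0.01 over all genes.

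**Figure D3:**
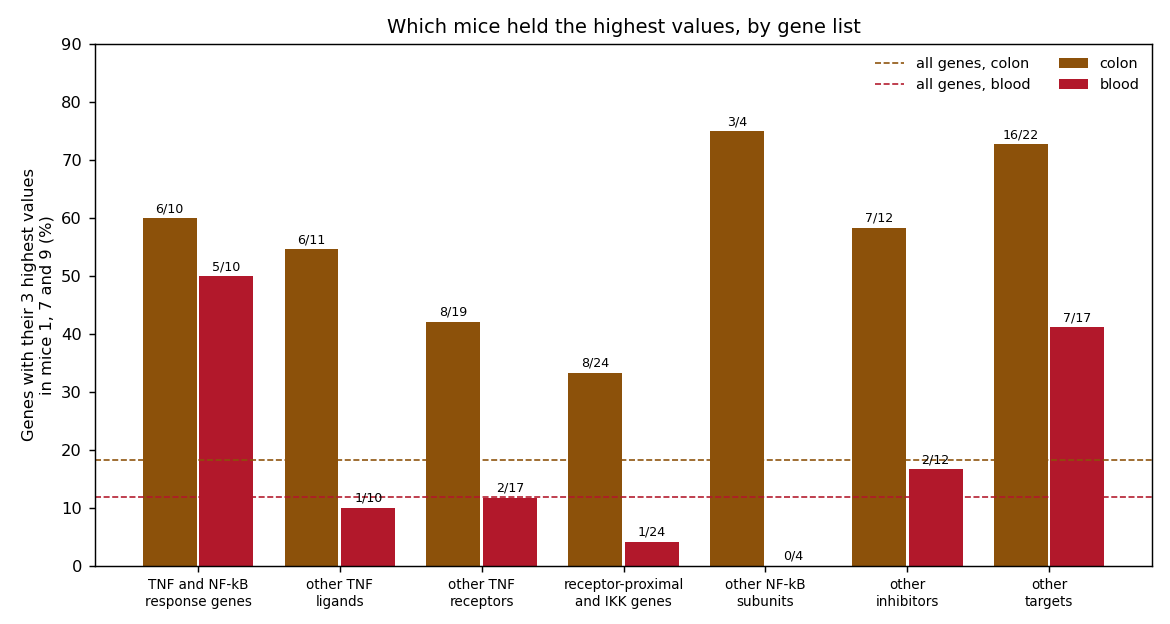
Percent of the genes in each list (vertical axis) whose 3 highest normalized counts lay in mice 1, 7 and 9, in colon (brown) and blood (red), with the numbers of genes above the bars. Dashed lines mark all genes, at 18.3% in colon and 11.8% in blood. The colon bars are all above their line, led by 3 of 4 subunits and 16 of 22 targets.

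The second question was how colon and blood of the same mice differed. The kits for RNA isolation and for RNA removal also differed between colon and blood, so tissue and preparation cannot be told apart. Ltb and Tnfaip2 were higher in blood. Ltb had a normalized count per kilobase of exon of 1785 ± 491 (SD, n = 6) in blood, where it ranked first of the 10 genes, and 133 ± 95.5 (SD, n = 6) in colon, where it ranked last. These 2 values come from tables normalized separately, so the difference was tested on counts scaled together. On that scale Ltb ran from 0.346 to 2.502 CPM, a count scaled to the library total with edgeR's TMM factors, in colon and from 27.0 to 67.8 in blood, and the tissues did not overlap. Its log2FC of colon over blood was -5.55 with an SE of 0.48 (edgeR quasi-likelihood test, adjusted p = 1.954e-06), a 46.7-fold difference. Tnfaip2 ran from 0.967 to 33.7 CPM in colon and from 35.3 to 121.4 in blood, again without overlap. Its log2FC was -2.78 with an SE of 0.73 (edgeR, adjusted p = 0.00522). All 8 T cell and all 6 B cell markers, and 7 of 8 neutrophil markers, were likewise SDE higher in blood, with list medians of -5.30, -5.78 and -6.15. Of 9 monocyte and macrophage markers 5 were SDE higher in blood and 2 in colon, and of 7 stromal and endothelial markers 6 were SDE higher in colon and 1 in blood. Their part in the Ltb and Tnfaip2 differences was not tested.

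No member was SDE higher in colon, where 37.7% of all genes were, and 20.8% of all genes were SDE higher in blood. Of the rest, 3 reached an adjusted p of 0.05 with a log2FC within 1. Birc3 was lower in colon, at a log2FC of -0.94 with an SE of 0.17 (edgeR, adjusted p = 0.000568). Relb was higher in colon at 0.86 with an SE of 0.23 (edgeR, adjusted p = 0.00609), and Tnfaip3 at 0.66 with an SE of 0.24 (edgeR, adjusted p = 0.0278). Tnfaip3 missed the threshold with the mouse as a replicate block (edgeR, adjusted p = 0.0672) and without mouse 2, 4, 8 or 9 (0.0771, 0.118, 0.0683 and 0.107), and over its 13 alternatives the adjusted p ran from 1.419e-06 to 0.118. Tnf at 1.11 with an SE of 0.63 and Tnfrsf1a at 1.03 with an SE of 0.46 did not pass (edgeR, adjusted p = 0.138 and 0.0665), and the remaining values were -0.36 for Tnfrsf1b, -0.14 for Nfkbia and 0.41 for Nfkbiz. Tnfrsf1a passed without mouse 1, at 1.39, and in 4 other alternatives. The median of all genes on this scale was 0.46, and relative to it Relb and Tnfaip3 stood at 0.40 and 0.20. Scaling by library size alone moved that median to 2.57 and the split of SDE members from 0 higher in colon and 2 higher in blood to 8 and 1, and that of all genes from 8759 and 4845 to 17887 and 1757. Under it Tnfrsf1b, Nfkbia and Birc3 changed direction and Tnfaip2, at -0.63, was no longer SDE. Ltb alone was SDE in the same direction under every scaling run, though its log2FC was smaller in size, at -3.37, under library size alone.

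**Figure D4:**
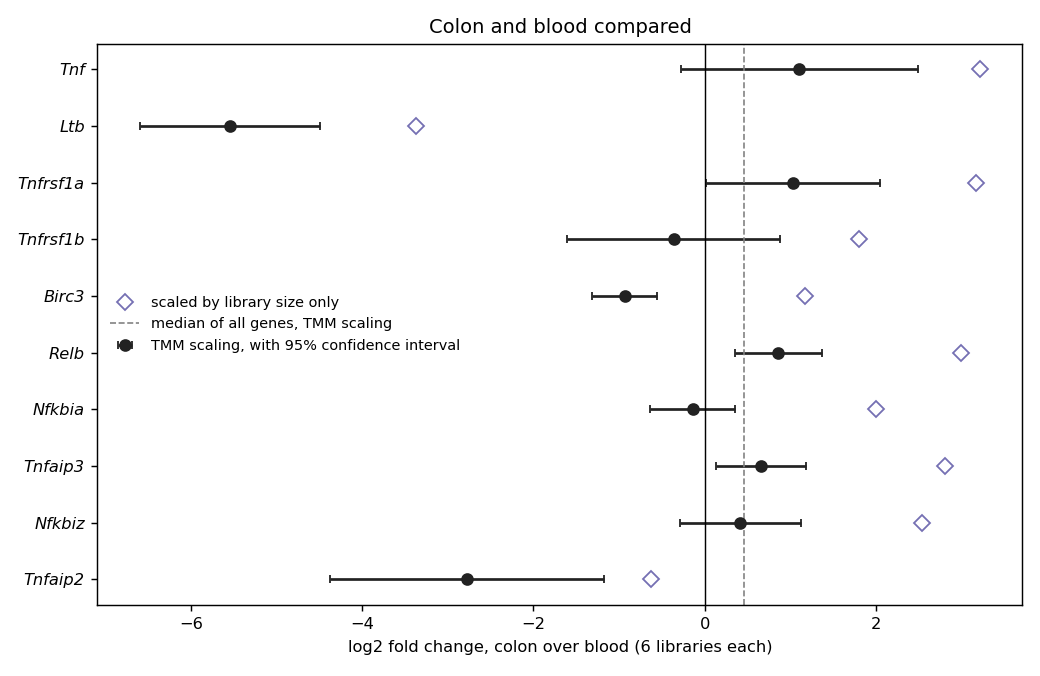
Log2 fold change of colon over blood (horizontal axis) for each gene from 6 libraries of each tissue. Filled points and bars are the TMM-scaled edgeR estimate with its 95% confidence interval, open diamonds the estimate scaled by library size alone, and the dashed line the median of all genes. Ltb and Tnfaip2 lie left of 0 in both, while 3 genes change sides.

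The balance of the TNF receptors does not depend on scaling, since both genes are read in the same library. Per kilobase, the ratio of Tnfrsf1b to Tnfrsf1a in colon was 0.912, 0.390 and 0.498 in mice 1, 2 and 4 and 1.01, 0.393 and 1.38 in mice 7, 8 and 9. In blood it was 1.97, 3.34 and 2.65 in mice 1, 2 and 4 and 2.26, 2.92 and 1.82 in mice 7, 8 and 9. The tissues did not overlap, and the ratio was lower in colon in 6 of 6 mice. The mean log2 ratio was -0.56 ± 0.78 (SD, n = 6) in colon and 1.29 ± 0.34 (SD, n = 6) in blood, a 3.60-fold difference. A two-sided exact permutation test over libraries gave p = 0.00216, adjusted 0.00433 over the 2 ratios tested, and an exact sign-flip test over the 6 mice gave p = 0.0312; both are the smallest these designs allow. The libraries pair by mouse, and adjusted over the 2 ratios the sign-flip p was 0.0625, above 0.05. Mice 1, 7 and 9 had the 3 highest ratios in colon and the 3 lowest in blood, so the gap between tissues was widest in mice 2, 4 and 8. The ratio of Relb to Rela, the main canonical subunit, ran from 0.554 to 1.39 in colon and from 0.838 to 1.31 in blood. Its log2 difference of -0.38 did not pass the two-sided exact permutation test (p = 0.156, adjusted 0.156), with lower values in colon in 4 of 6 mice.

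**Figure D5:**
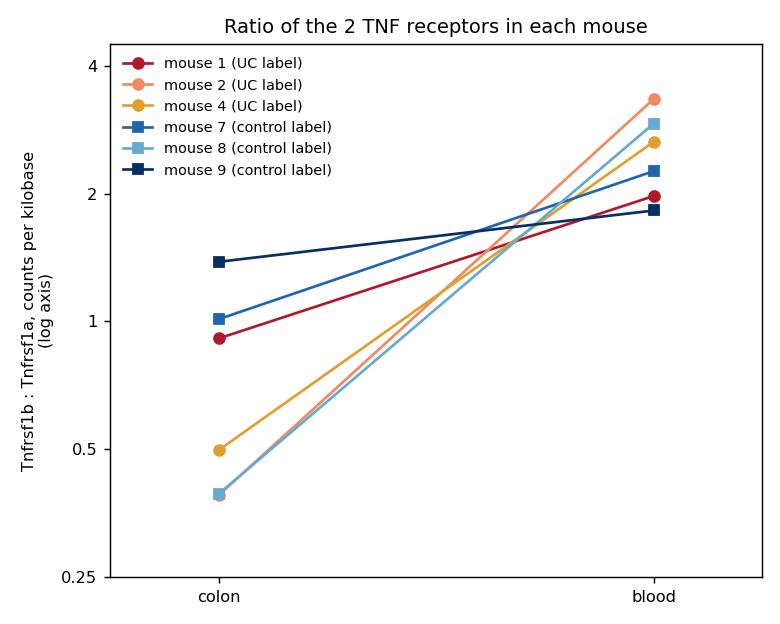
Ratio of Tnfrsf1b to Tnfrsf1a counts per kilobase (vertical log axis) in colon and blood, with a line for each mouse, circles for the UC label and squares for the control label. All 6 lines rise from colon, at 0.390 to 1.38, to blood, at 1.82 to 3.34.

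Ordered by level per kilobase within colon, Nfkbia led at a normalized count of 4264 ± 1182 (SD, n = 6) and exceeded the next gene in 6 of 6 libraries. Tnfrsf1a, Tnfrsf1b and Nfkbiz followed at 1870 ± 949, 1733 ± 1597 and 1439 ± 669, and neighbours in this stretch changed places between libraries. Birc3 at 1052 ± 142, Relb at 858 ± 252 and Tnfaip3 at 733 ± 265 came next, each above its next neighbour in 4 of 6 libraries. Tnfaip2 at 382 ± 449 and Tnf at 347 ± 352 did not differ beyond their spread. In blood, Ltb was above Nfkbia, at 1419 ± 396, in 4 of 6 libraries. Tnfaip2, Tnfrsf1b and Birc3 lay at 681 ± 358, 615 ± 335 and 614 ± 132, below Nfkbia in 6 of 6. Nfkbiz at 324 ± 110 and Tnfrsf1a at 274 ± 196 were followed by Relb at 144 ± 37.1 and Tnfaip3 at 141 ± 37.2, which did not differ beyond their spread. Tnf was last at 46.3 ± 17.0, below Tnfaip3 in 6 of 6 libraries.

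The pathway lists split both ways between colon and blood, and the counts that follow stand beside shares of 37.7% higher in colon and 20.8% higher in blood over all genes, which library size scaling moved as given above. Of 22 other NF-kB targets, 8 were SDE higher in colon, close to the share of all genes, and 3 higher in blood. Ccl20, a chemokine gene of gut epithelium, had 2079 counts over the colon libraries and 0 over the blood libraries, and was at least 32.9-fold higher in colon against a floor of 3 counts per blood library. Bcl2l1, which encodes the survival protein Bcl-xL, was the target most in excess in blood, at a log2FC of -3.87. Of 12 other inhibitors, 5 were higher in colon, led by Tnip3, an A20-binding protein, at 5.96, and 5 in blood, led by Nfkbie, which encodes IkB-epsilon, at -2.57. Among 4 other subunits Rela was higher in colon at 1.17 and Rel in blood at -1.33. The values of named list genes, here and below, are on the TMM scale. Their size and direction under library size scaling were not examined.

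Of 24 receptor-proximal and IKK genes, 4 were higher in colon, led by the necroptosis effector Mlkl at 3.38, and 9 in blood, led by the adaptor Traf5 at -3.15. Of 19 other receptors, 8 were higher in each tissue. Tnfrsf11b, the gene of the decoy receptor osteoprotegerin, led in colon, with a CPM ratio of 233 to blood and an exact 95% Poisson interval of 79.8 to 1131, which covers counting error of the 3 blood counts only, and Cd27, a lymphocyte receptor gene, led in blood at -6.66. Of 13 other ligands, 3 were higher in colon, led by Tnfsf15 at 5.83, and 5 in blood, led by the T cell ligand Cd40lg at -7.60, of which colon had 19 counts.

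For Tnf, Nfkbia and Tnfaip3 the 3 genes most alike over the 6 libraries of a tissue were sought, by the root mean square difference of centred log2 CPM among genes with a mean of at least 100 normalized counts. In colon, Tnf was nearest to Cpxm1, at 0.17, Wfdc17, at 0.24, and Tac1, at 0.28, where the median gene of 15827 stood at 1.58. Nfkbia was nearest to Plac8 at 0.06, Gsdmd at 0.08 and Hsd17b12 at 0.09, against a median of 0.49. Tnfaip3 was nearest to Mttp at 0.17, Thop1 at 0.17 and Kbtbd6 at 0.18, against a median of 0.54. In blood, the nearest were Deaf1, Dglucy and Slc25a16 for Tnf, at 0.15 to 0.19, Rxrb, Trp53i11 and Cpsf4 for Nfkbia, at 0.07 to 0.09, and Tmem106a, Ptpn3 and Layn for Tnfaip3, at 0.08 to 0.12. No gene was on both the colon and the blood list of the same member. These points share library and depth, and no test was made.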

How the data were processed

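Per the study's methods, the authors trimmed reads with Flexbar, removed ribosomal reads, mapped to GRCm38 with STAR and ran StringTie 1.3.4c on Ensembl 92 with no strand set. The deposited gene counts are whole numbers derived by the authors from StringTie coverage. The authors' normalized tables hold a signal: the counts divided by 1 factor per library, from 0.664 to 1.31, recovered as the same factor for 100% of genes. Colon RNA had ribosomal RNA removed, and blood also globin RNA.

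Groups came from the disease labels, and the tissue from the tissue characteristic. The members and lists were chosen with earlier results of these data known. Of 158 listed genes, 157 were found. Counts were fitted in R 4.3.3 with edgeR 4.0.16 (TMM, filterByExpr, glmQLFit, glmQLFTest, Benjamini-Hochberg), each tissue alone for the labels and 12 libraries together for the tissue and interaction contrasts. SDE required an absolute log2FC over 1 with an adjusted p no higher than 0.05, and the interaction used the adjusted p alone. SE is the log2FC over the square root of F. The fits were tested on simulated data with independent libraries and less spread than the real ones, so that test does not show how they perform here. DESeq2 1.42.0 was an alternative. Exon lengths and coordinates came from GENCODE vM21, and promoters from RefSeq. Named genes were all members, the SDE genes most extreme in each direction of the tissue fit in each list (those of the cell marker lists are in the closing section, except for 1 that is not reported here), the 3 genes most alike, and S100a8. Il1b, Cxcl2, Icam1, Il6 and Klf6, and the genes named as having their highest values in given mice, were chosen after their values were seen.

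The study took both tissues from the same mice, so the numbers pair the libraries; deviations of same-numbered libraries from group means correlated at 0.007 to 0.233 over 15802 genes. Labels name separate mice, so the p-values of the label fits measure the spread between animals within a label. The tissue and interaction fits took the 12 libraries as independent, with the replicate block as the alternative. For Ltb in the tissue contrast, the edgeR adjusted p was 1.954e-06 without the block and 6.777e-05 with it.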

Additional observations from a re-analysis of the deposited data

Results flagged for a closer look

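The blood normalized count of Tnfrsf1a in mouse 1, 1663, stood apart from the other 5 blood libraries, which ran from 325.2 to 756.2. That of Tnfrsf1b in mouse 1, 4835, stood apart likewise, with the others from 1401 to 2512. Both were marked because the gap to the nearest library, as a share of the whole range, passed Dixon's 95% critical value. Of 24 sets of 6 libraries examined, chance marks about 1 in 20. The neutrophil marker sum was also highest in this library, and its part in these values was not tested.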

How the results depend on the processing

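Each of the 10 genes was refitted in 13 alternatives of each contrast. No member became SDE between labels in any of the 130 refits of colon, of blood or of the interaction, where the lowest adjusted p in edgeR or DESeq2 was 0.540, 0.980 and 0.914. Over all genes, the SDE count between labels in colon went from 1 to 6 with DESeq2 and to 0 to 0 when a mouse was left out. In blood it went from 0 to 1 with library size only, to 6 with DESeq2 and to 0 to 3 when a mouse was left out. For the interaction it went from 1 to 20 with DESeq2, to 0 with the replicate block and to 1 to 2 when a mouse was left out.

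The tissue contrast moved more. The number of members SDE higher in colon went from 0 to 8 with library size only, and to 1 with DESeq2, with the genes of the normalized tables only and with the replicate block. It was 2 with no fold threshold and 0 to 2 when a mouse was left out, with 2 without mouse 1 (Tnfrsf1a at 1.39 and Relb at 1.06), 1 without mouse 7 (Relb at 1.03) and 1 without mouse 8 (Tnf at 1.37). The number higher in blood went from 2 to 1 with library size only and was 3 without mouse 4 (Birc3 at -1.01). Under that scaling the reversed log2FC values were 1.80 for Tnfrsf1b, 1.998 for Nfkbia and 1.17 for Birc3. The cause was not tested. The replicate block, which pairs the libraries of a mouse, added Tnfrsf1a at 1.15, left Tnfaip3 above an adjusted p of 0.05 in edgeR (0.0672) and changed no other member's side of that threshold in the tissue contrast. With 3 libraries per label, differences within the printed intervals were not detectable. Tnf in blood rests on normalized counts under 125.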

Other observations

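The cell marker lists gave these SDE extremes in the colon over blood fit. Among neutrophil genes Ly6g was higher in colon at a log2FC of 2.90, opposite to the other 7. It belongs to a family of related genes, and whether reads of other family members enter its counts was not tested. Cxcr2 was the most in excess in blood at -7.05. C1qb, a tissue macrophage gene, stood at 6.08 and Itgam at -3.42. Cd8b1, a T cell gene, stood at -6.83. Dcn, a fibroblast gene, stood at 10.80 and Pecam1, of endothelium, leukocytes and platelets, at -2.99. Rhag, a red cell gene, stood at -14.59 with 7 counts in colon. Krt20, of gut epithelium, had 0 counts in blood and was at least 4965-fold higher in colon against a floor of 3 counts per library.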
